A study of Homo sapiens with 2 samples.

Results

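The enzymes that write and erase methyl groups on cytosine in DNA were examined in a CUT & Tag experiment on HOXA5 in TFK-1 cells, a human cell line of extrahepatic cholangiocarcinoma. The set holds 8 of the 20056 protein-coding genes in the RefSeq table of the human genome (GRCh38.p14), namely DNMT1, DNMT3A, DNMT3B and UHRF1 on the writing side and TET1, TET2, TET3 and TDG on the erasing side. They were taken by name for their function, because the study had asked how methylation of HOXA5 itself bears on this cancer. CUT & Tag uses an antibody to guide a transposase to a protein on chromatin, so that DNA near the protein is cut and sequenced. The antibody was against Flag in both libraries. LV-HOXA5 cells carried a lentivirus for Flag-HOXA5 and LV-HOXA5-NC cells a negative control lentivirus, and both were stable lines selected with puromycin. There was 1 library for each condition, so no difference between them has a replicate check and no test between conditions was made. HOXA5 was expressed from a vector here, which limits the cells as a model of the factor at its own level.

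DNA methylation in mammals is placed mostly on cytosines that precede a guanine (CG dinucleotides). DNMT3A and DNMT3B put methyl groups on unmodified DNA, whereas DNMT1 copies the pattern to the new strand after replication, guided by UHRF1, which recognises CG sites methylated on the old strand alone. The TET enzymes oxidise methylcytosine, and TDG, a DNA glycosylase, cuts out the oxidised bases (and thymine mispaired with guanine) so that base excision repair can restore cytosine. Genes with CG-rich promoters, such as HOX genes, are frequent targets of abnormal methylation in tumours.

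The LV-HOXA5 library held 15778555 fragments after removal of duplicates and gave 8043 peaks, and the LV-HOXA5-NC library held 1948734 fragments (12.4% of the former) and gave 635 peaks. Each peak has a pileup, the count of fragments at its summit, and a fold enrichment, which sets that count against the level expected nearby in its own library. Over the LV-HOXA5 list, the medians were 17 fragments and 4.82-fold. The lowest pileup in that list was 8 fragments. A peak was given to a gene when it lay inside the gene or within 3 kb of either end.

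By this rule, 2 of the 8 genes had an LV-HOXA5 peak, 1 peak each: TDG among the erasers and UHRF1 among the writers. The share (25%, exact 95% binomial interval 3.19% to 65.1%) was close to the background, since 4156 of the 20056 protein-coding genes (20.7%) had an LV-HOXA5 peak by the same rule. None of the 3 DNA methyltransferase genes and none of the 3 TET genes had one. Among all protein-coding genes with a peak, 84.5% had exactly 1, as TDG and UHRF1 did. In the LV-HOXA5-NC list, 0 of the 8 genes had a peak, beside 0.713% of protein-coding genes. Intervals here cover counting error only, and genes are not replicates.

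The peak at TDG lay on the transcription start. The promoter of TDG (RefSeq, GRCh38.p14, chr12:103965622-103965921, plus strand, from 250 bases before the start to 50 after it) is shown because it is the only one of the 19 promoter windows of the 8 genes that an LV-HOXA5 peak touched. Capitals mark the 139 bases under the peak.
TDG promoter: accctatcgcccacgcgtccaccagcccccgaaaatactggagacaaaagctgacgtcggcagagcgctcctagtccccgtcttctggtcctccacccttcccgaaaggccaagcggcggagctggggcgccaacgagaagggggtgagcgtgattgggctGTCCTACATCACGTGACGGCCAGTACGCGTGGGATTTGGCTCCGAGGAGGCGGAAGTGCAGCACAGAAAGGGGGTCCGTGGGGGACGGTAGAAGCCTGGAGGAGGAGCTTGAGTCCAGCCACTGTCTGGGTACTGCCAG

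The TDG peak ran over 361 bp on chromosome 12, from 103965783 to 103966143, which is from 89 bp before the start to 271 bp after it. Its summit was at 103965872, the annotated first base of the gene. A summit exactly on a RefSeq start was found for 5 of the 8043 LV-HOXA5 peaks, and 383 summits lay within 50 bp of one. The pileup was 21 fragments (exact 95% Poisson interval 13.0 to 32.1), with a 5.93-fold enrichment and a −log10 q-value of 8.80. By fold enrichment it ranked 1879th of 8043, above 76.6% of the list, and it was above 78.0% of the 1897 peaks that touch a promoter window. The local background recovered from these values was 2.71 fragments, 1.88 times the level expected from the library total over the genome.

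TDG is not the only gene at this peak. The end of UQCC6, which lies on the minus strand and encodes an assembly factor of a mitochondrial respiratory complex, was 76 bp away from the peak, so that the 2 genes point away from each other. In the promoter table the nearest listed start of UQCC6 was 8568 bp from the peak. A peak between such genes cannot be given to one of them by position alone. The next LV-HOXA5 peaks on either side lay 35.6 kb upstream of TDG, 114 bp from the start of HSP90B1 (a chaperone of the endoplasmic reticulum), with a pileup of 22 fragments, and 42.7 kb downstream, with a pileup of 9 fragments.

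UHRF1 had the weaker peak of the pair. It ran over 284 bp on chromosome 19, from 4911870 to 4912153, inside the gene and 1503 bp downstream of the last of its 3 RefSeq starts. The pileup was 12 fragments (interval 6.20 to 21.0), with a 3.59-fold enrichment and a −log10 q-value of 2.31. By fold enrichment it ranked 7304th of 8043, above 9.16% of the list. With a q-value of 0.001 or less as the limit, UHRF1 no longer had a peak and TDG alone was left. The local background was 2.62 fragments, much like that at TDG. The peak also overlapped the record of ARRDC5, another gene, and it was 8.79 kb from the nearer end of the UHRF1 record. No RefSeq start was listed for ARRDC5, so the distance of the peak from one was not measured. Position alone does not give this peak to UHRF1.

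**Figure D1:**
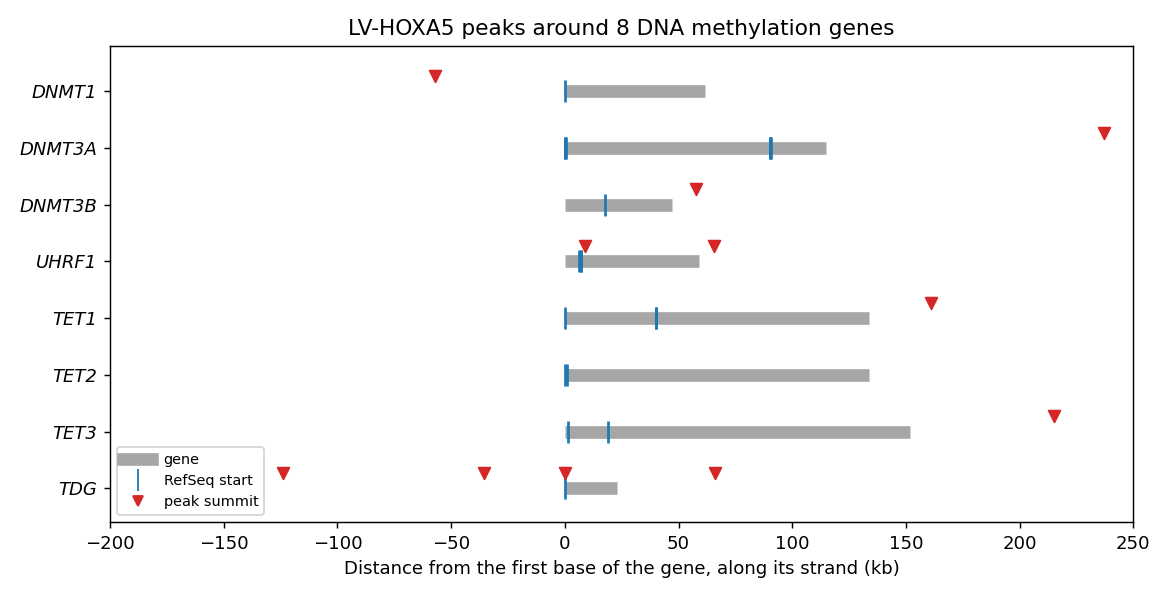
Position of LV-HOXA5 peak summits (red triangles) around the 8 genes, in kb from the first base of each gene along its own strand; grey bars are the genes and blue ticks their RefSeq starts. TDG has a summit at 0 and UHRF1 a summit inside the gene, and TET2 has none in the range drawn.

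Just outside the 3 kb limit, another peak lay 6.51 kb downstream of UHRF1 (chr19:4968662-4969043). It was 70 bp from the start of KDM4B, a histone demethylase gene, at 15 fragments and 4.61-fold. The next closest lay 10.5 kb downstream of DNMT3B and covered the start of MAPRE1, a microtubule end-binding protein gene, with 12 fragments over the summit and 3.92-fold enrichment. Both neighbours were named after their values were seen.

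Among the writers without a peak, DNMT1 (chr19:10133346-10194953) had its nearest LV-HOXA5 peak 56.9 kb upstream, at the start of MRPL4, a mitochondrial ribosomal protein gene. Its pileup was 21 fragments and its enrichment 6.33-fold. DNMT3B (chr20:32762385-32809356) was the closest to a peak, at MAPRE1 as above. DNMT3A (chr2:25227874-25342590) had no peak within 100 kb, and its nearest lay 122 kb downstream inside EFR3B, with 16 fragments at its summit (3.93-fold). Of the 6 genes without a peak, DNMT3A alone had a nearest peak that covered no RefSeq start of the promoter table.

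The 3 TET genes are the longest of the set, at 134, 134 and 152 kb, and each was free of peaks over its whole length. TET1 (chr10:68560337-68694487) had its nearest peak 26.5 kb downstream, over the start of CCAR1, a regulator of cell cycle and apoptosis, at 16 fragments and 4.59-fold. TET3 (chr2:73983631-74135498) had its nearest peak 62.9 kb downstream, over the start of MTHFD2, a mitochondrial enzyme of folate metabolism, with 23 fragments over the summit and 5.73-fold enrichment. TET2 (chr4:105145875-105279803) stood farthest from any peak. Its nearest peak lay 2.28 Mb upstream, between UBE2D3 and CISD2 whose starts it covered, and the interval without LV-HOXA5 peaks around TET2 was 6.86 Mb long and held 30 protein-coding genes. Only 20 of the 8018 intervals between neighbouring LV-HOXA5 peaks were longer, and the median interval was 103 kb. No LV-HOXA5-NC peak lay in the interval around TET2 either. Chromosome 4 had 281 LV-HOXA5 peaks, fewer than the other chromosomes of the set, which had from 333 (chromosome 20) to 535 (chromosome 2). The intervals were not compared within chromosomes.

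For 5 of the 6 genes without a peak, the nearest LV-HOXA5 peak covered a start of another gene. Over all 15894 protein-coding genes without a peak, the nearest one covered a RefSeq start for 29.4%, and neighbouring genes can share a nearest peak. With 6 genes this is a description of the set. The peaks nearest to these genes had pileups of 12 to 23 fragments, a range that holds the median of the list. Over the 8 genes, the median distance to the nearest peak was 41.7 kb, beside 77.7 kb for all protein-coding genes. The distance of TET2 exceeded that of 99.0% of protein-coding genes and the distance of DNMT3A that of 59.5%, and the other 4 genes without a peak fell between 25.1% and 45.9%. Of the set, TET2 alone lay at the edge of that distribution.

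**Figure D2:**
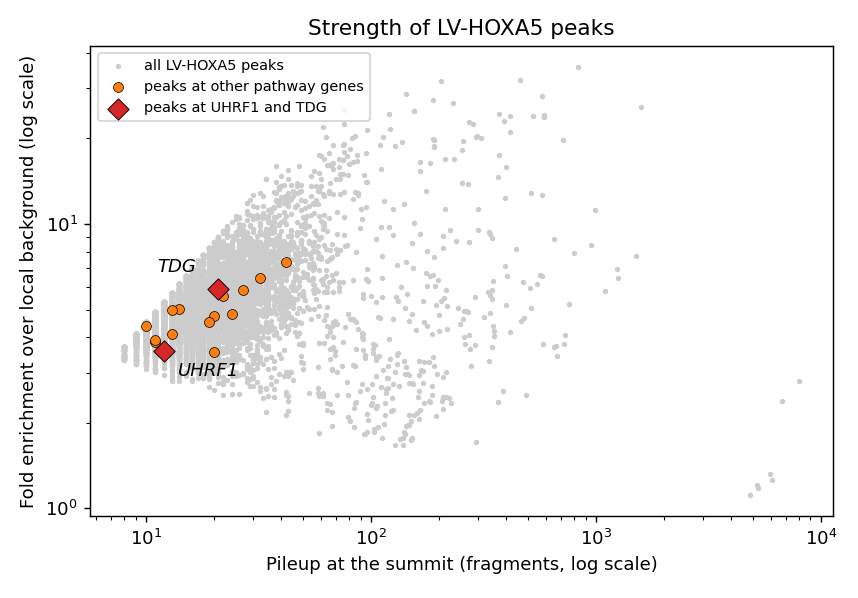
Fold enrichment against pileup at the summit (both log scales) for all LV-HOXA5 peaks (grey), for the peaks at other genes of DNA methylation (orange) and for the peaks at UHRF1 and TDG (red diamonds). The TDG peak, at 21 fragments and 5.93-fold, sits inside the main cloud and above the median of 17 fragments, and the UHRF1 peak, at 12 fragments and 3.59-fold, sits in its lower left corner.

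Gene length bears on the rule, because a long gene offers more room for a peak. The share of protein-coding genes with an LV-HOXA5 peak was 11.5% under 10 kb, 18.2% from 10 to 30 kb, 23.0% from 30 to 60 kb, 28.0% from 60 to 160 kb and 38.4% at 160 kb or more. TDG, with 23.0 kb, was the shortest of the 8 genes and had a peak. UHRF1 (59.1 kb) had a peak and DNMT3B (47.0 kb) in the same class had none. The 5 genes of 60 to 160 kb, DNMT1, DNMT3A, TET1, TET2 and TET3, had none. Summed over the 8 genes, the shares of their classes come to 2.04 genes, and 2 had a peak. The classes were drawn after the lengths of the 8 genes were known.

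**Figure D3:**
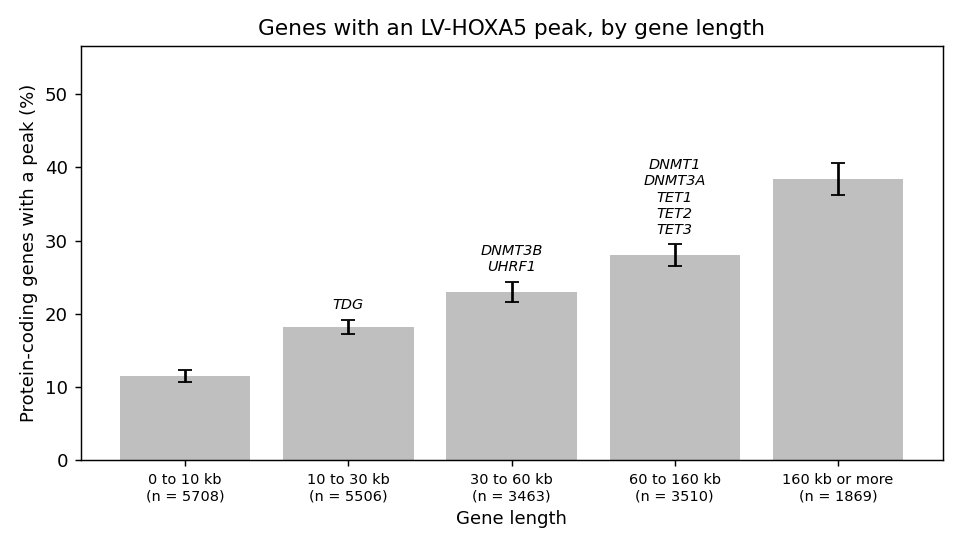
Percentage of protein-coding genes with an LV-HOXA5 peak inside or within 3 kb, by gene length, with exact 95% binomial intervals as error bars; the names above each bar are the genes of the set in that class. The share rises from 11.5% to 38.4% with length, while the 5 genes named at 60 to 160 kb had no peak.

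The promoters of the 8 genes differ widely in CG content. Over their 19 RefSeq windows of 300 bases, the number of CG dinucleotides ran from 3 at DNMT3B to 46 at a start of DNMT3A and a start of UHRF1, with a median of 26, beside 21 for all protein-coding windows. Several windows of DNMT3A, TET1 and UHRF1 overlap and are not independent. The single listed window of DNMT3B lies inside the gene record, far from its 5′ end, and those of UHRF1 also lie inside their record, so the promoters that may lie at those ends are not described. To show this range, the 150 bases that end each window are given for DNMT3B (chr20:32779752-32779901, 2 CG), the first start of TET1 (chr10:68560237-68560386, 6 CG) and the last start of UHRF1 (chr19:4910267-4910416, 23 CG), all on the plus strand of GRCh38.p14, with CG in capitals.
DNMT3B: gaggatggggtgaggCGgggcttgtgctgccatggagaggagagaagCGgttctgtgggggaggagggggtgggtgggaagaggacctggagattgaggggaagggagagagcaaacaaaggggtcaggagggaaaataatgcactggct
TET1: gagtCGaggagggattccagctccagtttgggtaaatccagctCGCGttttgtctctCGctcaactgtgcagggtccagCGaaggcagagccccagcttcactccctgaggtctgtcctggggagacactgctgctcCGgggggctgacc
UHRF1: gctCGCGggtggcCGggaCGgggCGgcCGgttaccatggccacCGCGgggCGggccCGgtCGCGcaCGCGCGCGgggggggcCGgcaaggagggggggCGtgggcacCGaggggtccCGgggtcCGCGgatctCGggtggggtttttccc

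Among all 22199 promoter windows of protein-coding genes, 2374 (10.7%) shared at least 1 base with an LV-HOXA5 peak, and 1 of the 19 windows of the set did. The share with a peak was 0.496% with 0 to 4 CG, 4.10% with 5 to 14, 20.1% with 15 to 24, 17.7% with 25 to 34 and 8.33% with 35 or more. The TDG window, with 22 CG, lay in the class where peaks were most frequent, together with 2 windows of DNMT3A (18 CG each) that had none. The windows of TET1 (6 to 11 CG) and DNMT3B (3 CG) lay in classes where peaks were rare. All 3 windows of UHRF1 (36 to 46 CG) lay in the highest class, in which a smaller share had a peak than with 15 to 24 or 25 to 34 CG. The 5 windows of the class with 25 to 34 CG, from DNMT1, DNMT3A and TET3, had no peak, beside 17.7% of all windows in it. The other 3 windows with 35 CG or more, from DNMT3A, TET2 and TET3, and that of TET2 with 13 CG had none either.

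**Figure D4:**
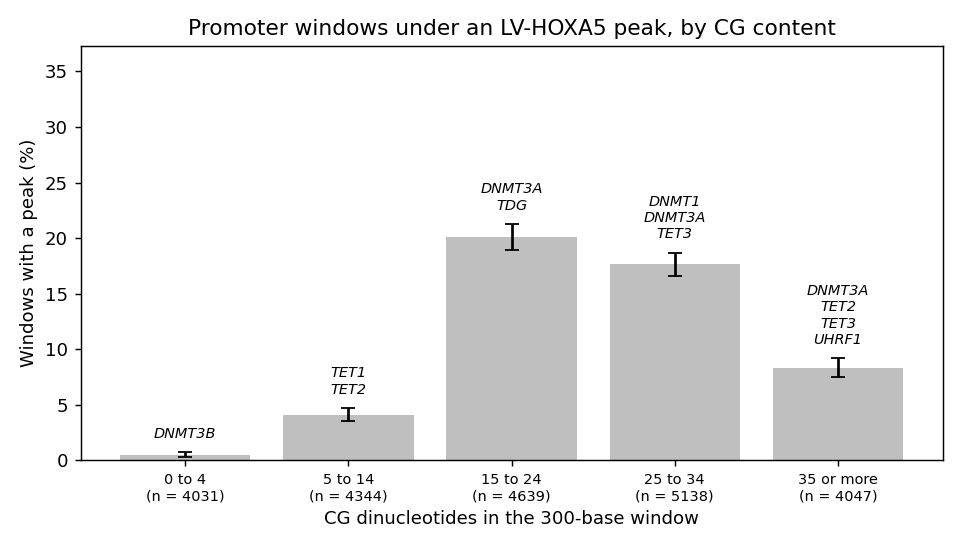
Percentage of promoter windows of protein-coding genes that share a base with an LV-HOXA5 peak, by the number of CG dinucleotides in the 300-base window, with exact 95% binomial intervals; names mark the genes of the set with a window in each class. The share is highest, 20.1%, at 15 to 24 CG, the class of the TDG window.

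HOX proteins bind short sequences around the letters TAAT. The letters were searched on both strands, and TAATTA contains TAAT and counts for both. On either strand, TAAT was present in 42.7% of the protein-coding windows, in 38.7% of those with an LV-HOXA5 peak and in 43.2% of those without. In the set it was present in 6 of 19 windows, at TET1, TET2, TET3 and DNMT3B, none of which had a peak, and in no window of TDG, UHRF1, DNMT1 or DNMT3A. The longer TAATTA was in 3.39% of all windows, in 1.77% of those with an LV-HOXA5 peak, in 3.59% of those without and in 0 of the 19. The stretches are shown as they carry the letters in promoters without a peak, with TAAT or its reverse complement ATTA in capitals (chr4:105145661-105145690 and chr4:105145694-105145723 for TET2, chr10:68560129-68560158 and chr10:68600290-68600319 for TET1, chr2:74002446-74002475 for TET3, chr20:32779876-32779901 for DNMT3B, all on the plus strand).
TET2 first: tccgtcattcggaATTAgctctgtatcggt
TET2 last: tttcttcattactTAATtgtacggggggaa
TET1 first start: ctgggaaaaaagtTAATgacaaaatcttga
TET1 later starts: gccaagaggttacTAATcaggaaggctcta
TET3 later start: acgccttctgggtATTAccttcggggtccc
DNMT3B: tcaggagggaaaaTAATgcactggct
A further stretch of TET2 overlaps the last one, and that of the later TET1 starts lies in both of its overlapping windows. The windows cover only 300 bases, so the presence or absence of these letters is a description.

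The letters CACGTG, an E-box that MYC-MAX and MXD1-MAX dimers bind, were searched because the study also followed MXD1; the letters read alike on both strands. They were present in 8.34% of protein-coding windows, in 10.4% of those with an LV-HOXA5 peak, in 8.09% of those without and in 5 of the 19 windows of the set. They lay in the TDG window 80 bases before the start, under the LV-HOXA5 peak. The other windows with CACGTG were 1 of TET2, 1 of TET3, which holds it at 2 places, and 2 overlapping windows of DNMT3A that share 1 place. The stretches follow with CACGTG in capitals (chr12:103965780-103965809, chr4:105145849-105145878, chr2:73984831-73984860 and chr2:73984871-73984900 on the plus strand, chr2:25252373-25252402 on the minus strand).
TDG: gctgtcctacatCACGTGacggccagtacg
TET2: ttctactcagccCACGTGgctaaagtaaac
TET3 first: tcggcggggccgCACGTGtgcgccctcccg
TET3 second: tccccgggcgagCACGTGccgcggtgcgcg
DNMT3A: tccagcggggccCACGTGacctggagtcct
Of these, the TDG copy alone lay under an LV-HOXA5 peak. This follows from the TDG window being the only one of the 19 that a peak touched, and it does not link the letters to the peak.

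A list of 40 other genes of DNA methylation was read with the same rule, and 11 (27.5%, interval 14.6% to 43.9%) had an LV-HOXA5 peak, an interval that holds the 20.7% of all protein-coding genes. Among 9 genes for writing and upkeep, 4 had a peak, namely UHRF2 (a relative of UHRF1), HELLS (a chromatin remodeller needed for methylation), PCNA (the replication clamp) and TRIM28 (a corepressor that acts with zinc finger proteins). Of these, PCNA had 3 peaks. The one that covered both an end of its gene and a RefSeq start reached 42 fragments and 7.38-fold. Those values were the highest of the 14 peaks at the listed genes. Another PCNA peak, at 32 fragments and 6.47-fold, also covered a RefSeq start. The remaining PCNA peak (20 fragments, 4.74-fold) lay outside the gene record, 1564 bp from its end and 6569 bp from a RefSeq start. The UHRF2 peak covered a start, with 11 fragments at its summit (3.84-fold). The HELLS peak lay outside the gene record, 134 bp from a start, with 11 fragments and 3.91-fold. Neighbouring genes at the HELLS peak and at the PCNA peak outside its record are not described. Position alone does not give these peaks to HELLS or PCNA. The TRIM28 peak covered an end of the gene, with 24 fragments and 4.82-fold. No RefSeq start was listed for TRIM28, so whether this peak covered a start was not measured.

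Among 13 genes for removal and base excision repair, which is where TDG acts, 2 had a peak. APEX1, the endonuclease that cuts the site left by a glycosylase, had a peak 18 bp from its start, at 27 fragments and 5.85-fold. MBD4, another thymine glycosylase for mismatches at CG sites, had one 159 bp from its start, with 10 fragments and a 4.38-fold enrichment. TDG and APEX1 thus had peaks of like strength at or near their starts, and that of MBD4 was lower. The APEX1 and MBD4 peaks lay outside their gene records. Neighbouring genes at them are not described, so position alone does not give these peaks to APEX1 or MBD4. Readers of methylation had a peak in 2 of 7 genes, with that of ZBTB4 over a start of the gene (20 fragments, 3.54-fold). Methyl donor supply had a peak in 3 of 6 genes. Partners of the TET enzymes and the enzymes that supply 2-oxoglutarate had a peak in 0 of 5 genes. Beside these counts, 20.7% of all protein-coding genes had a peak. Groups this small are described only, and a difference by function was not tested.

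In the control list, 1 of the 40 genes had a peak. It lay inside USP7, a deubiquitinase that stabilises DNMT1 and UHRF1, with 8 fragments over the summit and 5.05-fold enrichment, and no LV-HOXA5 peak overlapped it. None of the 14 LV-HOXA5 peaks at the listed genes, nor those at TDG and UHRF1, shared a base with a control peak. Sharing was rare at protein-coding genes in general, and the control list held only 635 peaks. Without the LV-HOXA5 peaks that shared a control peak, 20.5% of protein-coding genes still had a peak, beside 20.7% with them. The lack of sharing is thus not particular to these genes. For TDG and UHRF1 the depth of the control library sets the limit. Scaled to its number of fragments, the TDG pileup corresponds to 2.59 fragments and that of UHRF1 to 1.48, while at the genome-wide background of the control a region needed 4 fragments for the weakest p-value in its list. A difference between LV-HOXA5 and LV-HOXA5-NC at these 2 peaks was therefore not detectable at this depth. The nearest control peaks lay 10.1 Mb from TDG and 3.84 Mb from UHRF1.

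The same limit applies within the LV-HOXA5 library to the genes without a peak. At the genome-wide background of 1.44 fragments, a region needed 8 fragments for the weakest p-value in the list, and more where the local background was higher. The pileup at the starts of DNMT1, DNMT3A, DNMT3B, TET1, TET2 and TET3 was not analysed here, so a missing peak says only that the signal did not pass the threshold. For comparison, the HOXA5 gene had a peak with 44 fragments at its summit (7.55-fold), in which fragments from the lentiviral copy cannot be told apart from those of the gene.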

How the data were processed

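The authors made 1 LV-HOXA5 and 1 LV-HOXA5-NC library of TFK-1 cells by CUT & Tag with an antibody against Flag. Per the file headers, duplicates were removed and MACS 2.2.7.1 in paired-end mode called peaks separately in each library, with a q-value limit of 0.05 and no control. The submitters' processing notes also name fastp, Bowtie2, deepTools, ChIPseeker and GRCh38. The narrowPeak form of each list was not used. The deposited pileup is a signal in fragments, not scaled for depth, the deposited fold enrichment is a ratio to the background that MACS estimated around each peak, and p-values and q-values are deposited as −log10. Peak length was deposited in bp. Pileup and fold depend on depth and were ranked within a list only. The local background was computed as (pileup + 1) / fold − 1, and the genome-wide one as fragments times fragment length over 2.7e+09 bp.

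Peaks were placed on genes of GRCh38.p14 (RefSeq), all 8 genes and the 40 other genes being matched by symbol, and starts, strands and sequences came from the RefSeq promoter table. Without a genome sequence, exon and intron classes and the bases under the UHRF1 peak were not examined. Peak assignment was tested on simulated data with known positions. The genes, the list and the letters were chosen with earlier results of these data known. All 8 genes are named, and of the 40 others those whose LV-HOXA5 peak lay within 1 kb of either end, except that 1 such gene is not reported here by name. The length and CG classes, USP7 and the genes at the nearest peaks were chosen after their values were seen. With 1 library per condition no test was run. The alternatives were stricter peaks, other windows and starts, other ranks and other definitions of overlap. Python 3.11.15, NumPy 2.4.6, SciPy 1.17.1, pandas 2.3.3 and Matplotlib 3.10.9 were used.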

Additional observations from a re-analysis of the deposited data

How the results depend on the processing

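The number of the 8 genes with an LV-HOXA5 peak, and of peaks at them, was 2. Each fell to 1, at TDG, with a q-value of 0.001 or less, when the fold enrichment had to reach the list's median, and when only peaks within 3 kb of a gene end were counted. TDG and UHRF1 were the genes with a peak under the other 6 settings (windows of 0, 1 and 10 kb, the summit in place of the edge, peaks without a control peak, and, added after seeing the data, peaks within 3 kb of a RefSeq start), with 3 peaks in place of 2 at 10 kb. The background of 20.7% became 17.9% with the stricter q-value, 11.2% with the median fold, 15.7%, 19.6% and 24.8% with windows of 0, 1 and 10 kb, 15.0% near gene ends only, 12.1% near RefSeq starts, and 11.3% over all genes of the table. The 11 other genes of DNA methylation with a peak fell to 6 with the median fold and were 8 to 11 otherwise. The UHRF1 peak, above 9.16% of the list by fold, was above 15.6% by pileup and 6.37% by −log10 q-value. The TDG peak, above 76.6%, was above 66.4% by pileup and 73.5% by −log10 q-value. Among peaks of chromosomes 1 to 22, X and Y without a control peak, it was above 78.7% by fold. The causes were not tested beyond the construction of each setting, which drops peaks or moves the window. The genes with a control peak, and the peaks shared with one, stayed at 0 under every alternative tried. Depth limits both lists, and no library was replicated. No paired analysis was possible because each condition had 1 library.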
